A study of Homo sapiens with 6 samples.

Results

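The genes described here are 10 human genes of bile acid sensing and transport, which were chosen by name for their roles: NR1H4, NR0B2, FGF19, SLC51A, SLC51B, ABCB11, ABCB4, SLC10A1, BAAT and SLC27A5. The choice was made with earlier results of these data known. All 10 are among the 61541 Ensembl genes of the count table, and 7 of them had enough counts to be tested, together with 14102 genes in all. Their RNA was measured by sequencing in luciferases-expressing HepG2 cells, in 3 libraries from cells that received 100 μM sedanolide for 24 h and 3 from control cells. HepG2 is an established line that the labels describe as hepatoblastoma, and all 6 libraries share its ARE-driven red luciferase SLR3 and its green luciferase ELuc, which served as the internal control. Sedanolide, a phthalide of celery, was dissolved in dimethyl sulfoxide, and the labels do not say whether the control wells received this solvent. The labels number the libraries as replicates without saying what separates them, so the p-values measure the spread between these libraries, which may be technical.

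Bile acids are made from cholesterol in hepatocytes, activated to coenzyme A esters, joined to glycine or taurine and pumped into bile. They return from the intestine in portal blood and are taken up again by the liver. NR1H4 encodes the farnesoid X receptor (FXR), the nuclear receptor that bile acids bind. With its partner RXR, FXR binds inverted repeats of the hexamer AGGTCA spaced by a single base (IR-1) and turns on NR0B2, FGF19 and genes of bile acid export, which limits synthesis and lowers the bile acid load of the cell. SLC51A and SLC51B encode the α and β subunits of a transporter of the basolateral membrane, and each subunit needs the other for transport.

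The promoter windows of SLC51A and SLC51B are shown because the α subunit gene was called higher in sedanolide-treated cells and its partner was not. Each window runs from 250 bases before to 50 bases after the transcription start given by RefSeq for GRCh38.p14, and each is written 5′ to 3′ on the strand of the gene. The SLC51A window lies at chr3:196216284-196216583 on the plus strand, inside the longer gene that GENCODE gives, and the SLC51B window lies at chr15:65045137-65045436 on the plus strand. Capitals mark the bases that match the IR-1 motif AGGTCANTGACCT with at most 2 mismatches.
SLC51A: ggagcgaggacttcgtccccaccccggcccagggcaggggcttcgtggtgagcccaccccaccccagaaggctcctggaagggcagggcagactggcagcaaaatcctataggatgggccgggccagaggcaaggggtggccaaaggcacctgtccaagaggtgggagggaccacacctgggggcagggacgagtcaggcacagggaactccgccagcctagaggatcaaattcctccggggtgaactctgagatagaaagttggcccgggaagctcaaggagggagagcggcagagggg
SLC51B: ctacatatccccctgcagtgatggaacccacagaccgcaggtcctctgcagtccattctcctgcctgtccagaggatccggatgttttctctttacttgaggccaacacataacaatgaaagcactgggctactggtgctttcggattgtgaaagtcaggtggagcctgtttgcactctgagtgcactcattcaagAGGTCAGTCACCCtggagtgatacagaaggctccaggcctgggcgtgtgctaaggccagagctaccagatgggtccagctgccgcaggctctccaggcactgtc
The match in SLC51B spans bases -54 to -42 from the start and carries 2 mismatches. The SLC51A window held no such match on either strand. Bases outside these windows were not searched, nor were sites with more than 2 mismatches. A window without a match may therefore still hold a site that FXR binds.

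Windows were found for 7 of the 10 genes, 8 windows in all since BAAT had 2, and the windows searched held none for NR0B2, FGF19 and ABCB4. IR-1 matches, also with 2 mismatches each, stood in the windows of ABCB11 and SLC10A1, which are shown for comparison with the SLC51B match.
SLC51B: AGGTCAGTCACCC
ABCB11: ATGTCACTGAACT
SLC10A1: AGGTCAGGGAGCT
The ABCB11 match spanned bases -96 to -84 and the SLC10A1 match spanned bases -149 to -137. Among all 35116 promoter windows, searched on both strands, 1.12% held an IR-1 match at this tolerance. The hexamer AGGTCA alone, which overlaps the IR-1 motif, was in 13.8% of windows and in those of SLC51B, SLC10A1, NR1H4 and 1 of the BAAT windows. The ARE core TGACNNNGC, the element bound by NRF2 and small MAF proteins, was in 13.3% of all windows and, among the windows of these genes, in 1 of the BAAT windows, where it overlapped that hexamer. These matches are letters in a window, and no binding was measured. They need not be the sites that FXR uses in these genes, since sites with more than 2 mismatches were not sought.

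The libraries held from 16420258 to 26714853 expected counts. In a principal component analysis, component 1 held 56.1% of the variance and separated control 1, control 2 and sedanolide 3 (side A) from control 3, sedanolide 1 and sedanolide 2 (side B), with 1.43% to 2.15% of counts from mitochondrial genes on side A and 4.23% to 5.22% on side B. No batch is given for these libraries, and each side holds both conditions, so values are also given within a side and from a second fit in which the side was a term. The side was taken from the same counts that this second fit tests, so its p-values may be too small. Differences within a side rest on sedanolide 3 alone for sedanolide on side A, and on control 3 alone for control on side B. Of the hepatocyte markers, all 10 were detected, with a summed level of 29733 to 48438 CPM in control libraries and 21560 to 40739 CPM in sedanolide libraries. All 10 had log2 fold changes below 0 (median -0.38), and edgeR called 0 of them (2 lower at an unadjusted p-value under 0.05; 0 called by DESeq2 or limma). Among enterocyte markers CDX1, SI and LCT had no counts, and the list summed to 453 to 500 CPM in control and 372 to 428 CPM in sedanolide libraries. Most of this sum came from VIL1 and ANPEP. VIL1 lay wholly below the controls, at 331 ± 13.5 CPM in control and 270 ± 13.7 CPM in sedanolide libraries (SD, n = 3; adjusted p = 0.348 by edgeR). ANPEP overlapped, at 149 ± 36.9 CPM and 126 ± 37.4 CPM. Cholangiocyte markers, with AQP1 at 0, summed to 377 to 411 CPM in control and 340 to 387 CPM in sedanolide libraries, most of it SOX9, GGT1 and EPCAM. Within that list KRT19 lay wholly below the controls, at 34.9 ± 10.3 CPM in control libraries and 15.2 ± 4.94 CPM in sedanolide libraries (SD, n = 3; log2 fold change -1.21, adjusted p = 0.186 by edgeR). The other tested genes of the list overlapped between the groups, with log2 fold changes of 0.09 for EPCAM, -0.01 for GGT1 and -0.19 for SOX9. Markers of stellate, endothelial and blood cells, with COL1A2 and HBB at 0, summed to 102 to 120 CPM in control and 98.2 to 114 CPM in sedanolide libraries, most of it ACTA2. PDGFRB of that list lay wholly below the controls, at 20.1 ± 4.69 CPM in control libraries and 7.51 ± 3.35 CPM in sedanolide libraries (SD, n = 3; log2 fold change -1.42, adjusted p = 0.155 by edgeR). The other tested genes of the list went the other way, with log2 fold changes of 0.16 for ACTA2, 0.07 for PECAM1 and 0.36 for CD68. CD68 lay wholly above the controls (adjusted p = 0.484 by edgeR). Of the markers tested in these 3 lists edgeR called 0 (1 lower in each list at an unadjusted p-value under 0.05), whereas DESeq2 and the fit with the side as a term called KRT19 and PDGFRB lower, both genes being named after their values were seen. All libraries came from the same HepG2 line, so these marker values describe RNA of that line. Bulk RNA cannot tell whether all of its cells differed or only some.

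In sedanolide-treated cells SLC51A rose 1.80-fold, whereas its partner SLC51B showed no detectable change. NR0B2, ABCB4 and BAAT had lower levels in every sedanolide library than in any control library, but none of these passed the test across all genes. The sensor NR1H4 and the bile acid CoA ligase SLC27A5 overlapped between the groups, and FGF19, ABCB11 and SLC10A1 were at or near 0. A gene was called where its Benjamini-Hochberg FDR over all genes was under 0.05 and its fold change over 1.5 in edgeR's quasi-likelihood test. By this rule 1 of the 7 tested genes was called higher, where 0.355% of all genes tested were, and 0 were called lower, where 0.312% were. At an unadjusted p-value under 0.05, 1 was higher and 3 were lower, as were 5.34% and 6.57% of all genes tested, and DESeq2 likewise called 1 higher and 0 lower. In normalized CPM, 1 of the 7 lay wholly above the controls, as did 8.69% of all genes tested, and 3 lay wholly below, as did 9.65%. The median log2 fold change of the 7 was -0.22, against 0.0057 for all genes tested.

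**Figure D1:**
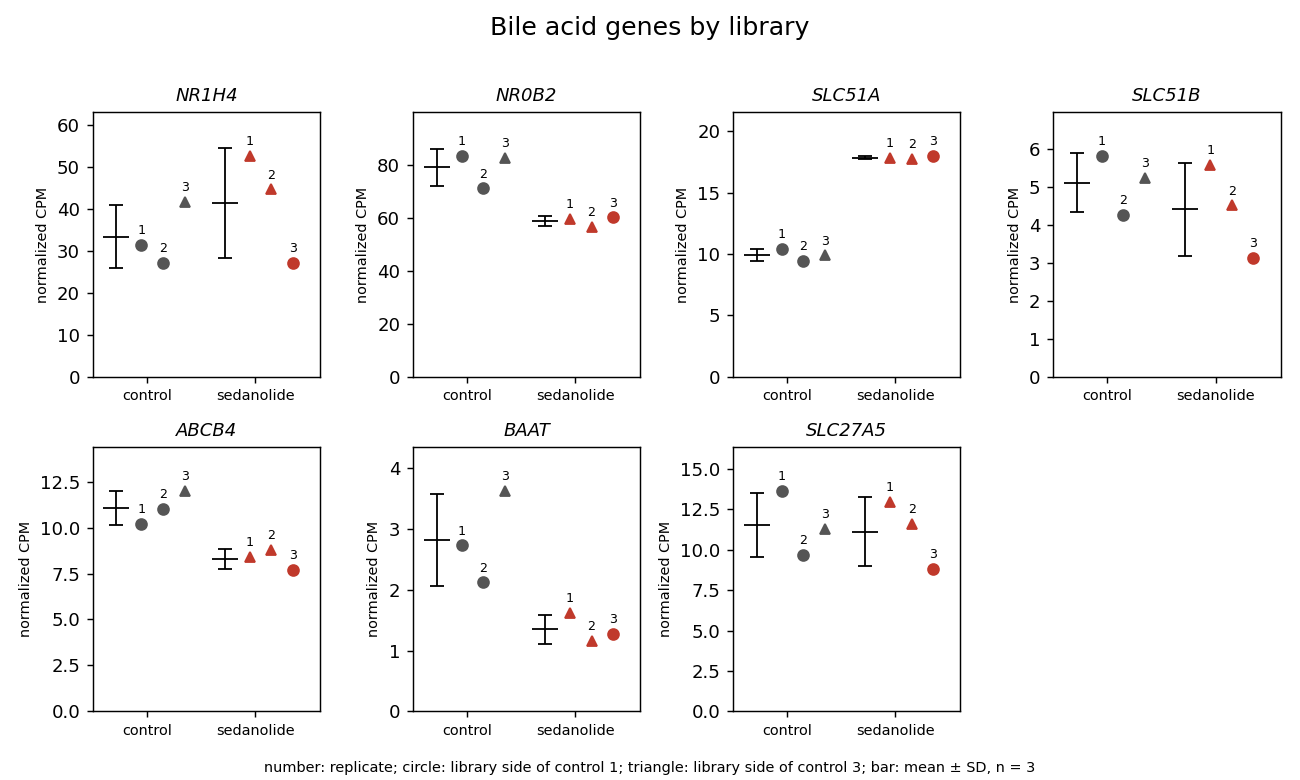
Normalized CPM (CPM, counts scaled by library size and TMM, on linear axes from 0) of the 7 tested bile acid genes in the 3 control and 3 sedanolide libraries, with points for libraries, circles for side A, triangles for side B and bars for mean ± SD. SLC51A lies between 17.8 and 18.0 CPM in sedanolide libraries and between 9.40 and 10.4 CPM in controls, whereas NR1H4 follows the marker shape, with all circles below all triangles.

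SLC51A (ENSG00000163959, chromosome 3 of GRCh38, 196211487 to 196243178, plus strand) encodes the α subunit of the basolateral organic solute transporter, which lets bile acids leave the cell. Controls 1 to 3 held 172, 222 and 175 counts of it, and sedanolide 1 to 3 held 331, 460 and 453 counts. As normalized CPM, counts scaled to library size by TMM, these were 10.4, 9.40 and 9.89 CPM in control cells and 17.8, 17.8 and 18.0 CPM in sedanolide-treated cells. The groups did not overlap, and the sedanolide libraries differed among themselves by less than the control libraries did on this scale. The means were 9.90 ± 0.509 CPM and 17.8 ± 0.105 CPM (SD, n = 3). This was a log2 fold change of 0.85 with a standard error of 0.12 (adjusted p = 0.0300 by edgeR). The difference was 0.85 within side A and 0.84 within side B, and the adjusted p from edgeR with the side as a term was 0.00358.

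The size of the SLC51A change varied little over the fits that left out a library, from 0.81 to 0.88 on the log2 scale, but its call did not hold in most of them. It was called without sedanolide 3 (adjusted p = 0.0435 by edgeR), and the adjusted p was between 0.125 and 0.237 without any of control 1, control 2, control 3, sedanolide 1 or sedanolide 2. In the deposited TPM table the log2 difference was 0.77 (adjusted p = 0.0680 by limma), and with a pseudocount of 0.1 it was 0.81 (adjusted p = 0.0756 by limma). DESeq2 gave an adjusted p of 5.51e-07. SLC51A shares 389 exon bases (7.39% of its exon bases) with PCYT1A, the rate-limiting enzyme of phosphatidylcholine synthesis, which lies on the opposite strand and held 536% of the counts of SLC51A. The libraries were directional, but whether the counting used strand is not stated. PCYT1A was at 68.7, 67.9 and 65.4 CPM in control libraries and 79.8, 86.5 and 82.8 CPM in sedanolide libraries, with no overlap and a log2 difference of 0.30 (adjusted p = 0.306 by edgeR). Its part in the SLC51A value was not tested.

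SLC51B (ENSG00000186198, chromosome 15, 65045387 to 65053397, plus strand) encodes the β subunit that brings the α subunit to the membrane. It had 96, 101 and 93 counts in the controls and 104, 117 and 79 counts in sedanolide 1 to 3, or 5.82, 4.28 and 5.26 CPM against 5.59, 4.52 and 3.13 CPM. The groups overlapped, with sedanolide 3 the lowest and control 1 the highest library. The log2 fold change was -0.22 (95% interval -0.79 to 0.36, adjusted p = 0.761 by edgeR), and with the side as a term it was -0.36 (95% interval -0.83 to 0.11). Within side A the log2 difference was -0.66 and within side B it was -0.06. Both intervals leave out the 0.85 of SLC51A. SLC51B shares 61 exon bases with RASL12, which had at most 3 counts in a library.

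TPM, which are scaled by transcript length and so can be compared between genes, gave levels of 16.0, 17.3 and 14.2 for SLC51A in control libraries and 29.3, 24.9 and 29.1 in sedanolide libraries. Those of SLC51B were 11.4, 9.21 and 9.80 TPM in control and 9.65, 8.07 and 6.34 TPM in sedanolide libraries. The α subunit was thus above the β subunit in every library. The ratio of their TPM was 1.41, 1.88 and 1.45 in the controls, whereas it was 3.03, 3.08 and 4.59 in sedanolide 1 to 3. The ratio was above 3 in each sedanolide library and under 2 in each control library. On the log2 scale it was 0.65 ± 0.23 in control and 1.81 ± 0.34 in sedanolide-treated cells (SD, n = 3), a difference of 1.16 (exact permutation test, two-sided, p = 0.1, the smallest that 3 against 3 libraries allow). The ratio of the counts gave a log2 difference of 1.09, with the same p of 0.1 by exact permutation.

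**Figure D2:**
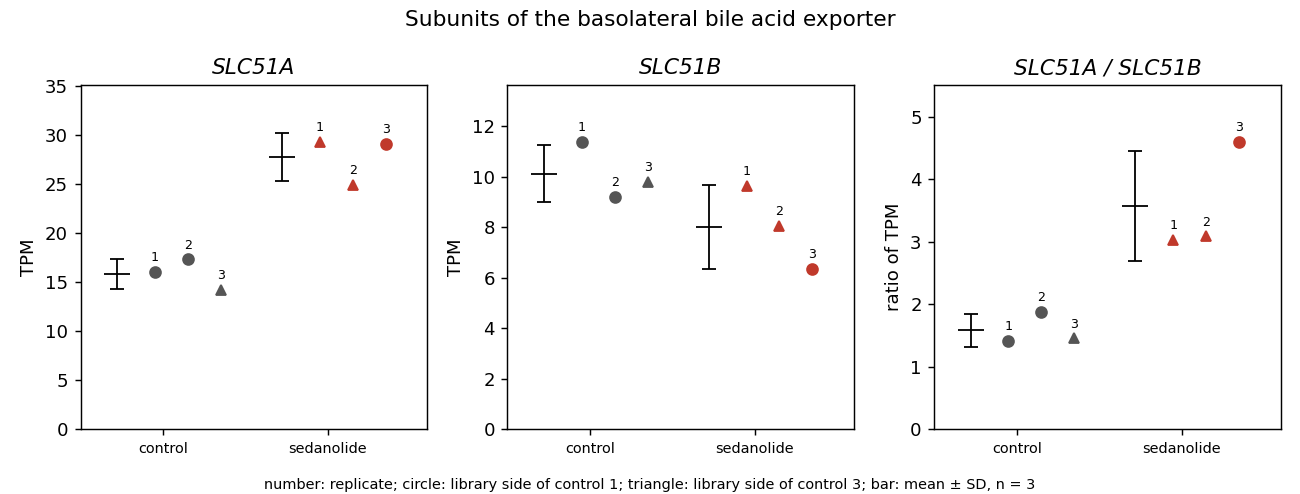
TPM of SLC51A and SLC51B and the ratio of both (linear axes from 0) in each library, with points for libraries, circles for side A, triangles for side B and bars for mean ± SD, n = 3. The ratio of the α to the β subunit is 1.41 to 1.88 in control and 3.03 to 4.59 in sedanolide libraries.

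NR1H4 (ENSG00000012504, chromosome 12, 100473708 to 100564414, plus strand), the gene of FXR, had 518, 640 and 737 counts in controls 1 to 3 and 976, 1155 and 681 counts in sedanolide 1 to 3. In normalized CPM these were 31.4, 27.1 and 41.7 in control cells and 52.5, 44.6 and 27.0 in sedanolide-treated cells. The level followed the side of the library rather than the treatment, being 27.0 to 31.4 CPM on side A and 41.7 to 52.5 CPM on side B, and sedanolide 3 was the lowest of all. The log2 fold change was 0.31 with a standard error of 0.27 (adjusted p = 0.690 by edgeR). With the side as a term it was 0.06 (95% interval -0.22 to 0.34), and within the sides it was -0.11 on side A and 0.22 on side B.

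NR0B2 (ENSG00000131910, chromosome 1, 26911489 to 26913975, minus strand) encodes the small heterodimer partner, a repressor that FXR induces and that dampens bile acid synthesis. It had 1373, 1678 and 1462 counts in controls 1 to 3 and 1106, 1461 and 1517 counts in sedanolide 1 to 3. Its normalized CPM were 83.2, 71.1 and 82.6 in control and 59.5, 56.4 and 60.1 in sedanolide-treated cells. All sedanolide libraries were under the lowest control library on this scale, and sedanolide 1 to 3 were closer together than the controls. The log2 fold change was -0.43 with a standard error of 0.11 (adjusted p = 0.203 by edgeR). Its adjusted p was under the FDR threshold with the side as a term (0.0483 by edgeR) and with DESeq2 (0.0276), but the fold change was below 1.5 in both, so NR0B2 was not called. Within the sides the log2 difference was -0.35 and -0.51.

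FGF19 (ENSG00000162344, chromosome 11, 69698238 to 69704022, minus strand), the hormone by which the ileum signals to the liver to slow bile acid synthesis, had 1, 0 and 0 counts in controls 1 to 3 and 2, 1 and 2 counts in sedanolide 1 to 3. No library reached the 3 counts that a count of 0 allows, which corresponds to 0.116 to 0.182 CPM across the libraries. A difference in FGF19 was not detectable at this depth. Such limits cover counting error only.

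The canalicular exporters send bile acids and phospholipid into bile. ABCB11 (ENSG00000073734, chromosome 2, 168915498 to 169031324, minus strand), the bile salt export pump, had 1 count in control 2, 2 counts in sedanolide 2 and 0 in the other 4 libraries, so that it was under the same limit throughout. ABCB4 (ENSG00000005471, chromosome 7, 87401696 to 87480435, minus strand), the phosphatidylcholine floppase, was expressed, with 168, 260 and 212 counts in controls and 156, 227 and 194 counts in sedanolide 1 to 3. In normalized CPM it was at 10.2, 11.0 and 12.0 in control and at 8.39, 8.77 and 7.69 in sedanolide-treated cells. The groups did not overlap, and the lowest control library was control 1. The log2 fold change was -0.42 with a standard error of 0.13 (adjusted p = 0.278 by edgeR), with -0.46 within side A and -0.48 within side B. With the side as a term it was -0.47 (adjusted p = 0.0570 by edgeR), so ABCB4 was not called. ABCB1, a close paralog of ABCB4 whose reads RSEM could share with it, had a log2 fold change of -0.06.

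The uptake carrier SLC10A1 (ENSG00000100652, chromosome 14, 69775416 to 69797241, minus strand), the sodium-dependent importer that brings conjugated bile acids in from blood, had 1, 2 and 0 counts in controls and 4, 0 and 1 counts in sedanolide 1 to 3. It was thus close to the limit of 3 counts in every library, and no difference was detectable.

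BAAT (ENSG00000136881, chromosome 9, 101354182 to 101385400, minus strand) joins bile acid CoA esters to glycine or taurine. It was the lowest of the tested genes in counts, with 45, 50 and 64 counts in the controls against 30, 30 and 32 counts in sedanolide 1 to 3. Its normalized CPM were 2.73, 2.12 and 3.62 in control and 1.61, 1.16 and 1.27 in sedanolide-treated cells. All sedanolide libraries lay under all controls, and control 3 was the highest. The log2 fold change was -1.07 with a standard error of 0.27 (95% interval -1.70 to -0.43), but the adjusted p was 0.182 by edgeR, so BAAT was not called. With the side as a term its log2 fold change was -1.18 and its adjusted p was 0.0320 by edgeR, which is past both thresholds, as were 1.62% of all genes tested in the lower direction in that fit. DESeq2 gave an adjusted p of 0.0618, and the fits that left out a library gave log2 fold changes of -1.24 to -0.84. BAAT had no values in the deposited TPM table.

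SLC27A5 (ENSG00000083807, chromosome 19, 58479512 to 58512413, minus strand) encodes the bile acid CoA ligase of the liver, which prepares bile acids for BAAT. It had 225, 228 and 200 counts in the controls and 241, 301 and 222 counts in sedanolide 1 to 3, or 13.6, 9.66 and 11.3 CPM against 13.0, 11.6 and 8.80 CPM. The groups overlapped over nearly their whole range, with control 1 the highest and sedanolide 3 the lowest library. The log2 fold change was -0.05 (95% interval -0.52 to 0.42, adjusted p = 0.937 by edgeR), and its sign turned without control 1 (0.07) and without sedanolide 3 (0.10). Within side A the log2 difference was -0.38, and within side B it was 0.12. SLC27A5 shares 1131 exon bases with ZNF446 on the opposite strand, which held 49.0% of the counts of SLC27A5 and had a log2 difference of -0.66 (adjusted p = 0.259 by edgeR).

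**Figure D3:**
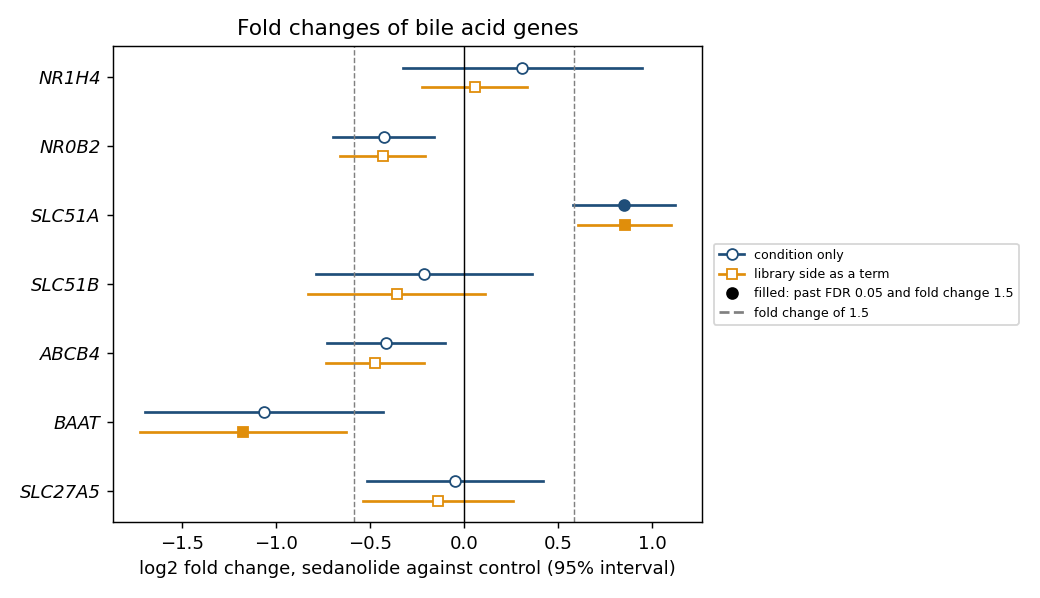
Log2 fold changes of sedanolide against control for the 7 tested bile acid genes (x axis), with 95% intervals, from the fit with the condition only (blue circles) and with the library side as a term (orange squares). Filled symbols passed the FDR of 0.05 and lay beyond the dashed lines at a fold change of 1.5, which is SLC51A in both fits and BAAT with the side as a term.

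In order of length-scaled level, NR0B2 was the highest of the genes in control cells at 116.8 ± 4.01 TPM, followed by SLC27A5 at 35.1 ± 4.19, NR1H4 at 22.4 ± 3.05, SLC51A at 15.8 ± 1.55, SLC51B at 10.1 ± 1.12 and ABCB4 at 4.59 ± 0.598 TPM (SD, n = 3). No neighbours in this order overlapped between control libraries. In sedanolide-treated cells NR0B2 was again highest at 80.7 ± 8.57 TPM, and SLC27A5 (31.2 ± 3.28 TPM), SLC51A (27.7 ± 2.48 TPM) and NR1H4 (25.7 ± 5.68 TPM) overlapped one another. SLC51A thus moved from below every NR1H4 library to the same range, while SLC51B (8.02 ± 1.66 TPM) and ABCB4 (3.10 ± 0.241 TPM) kept their places at the end.

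The other genes of the pathway were taken from 4 lists with 73 genes, of which 57 were tested. Of these, 1 was called higher, the exporter ABCC3, and 1 lower, the fatty acid and bile acid binding protein FABP1, where 0.355% and 0.312% of all genes tested were. In normalized CPM, 8 of the 57 lay wholly above and 15 wholly below the control libraries, as did 8.69% and 9.65% of all genes tested, and the median log2 fold change was -0.11. With the side as a term 2 were called higher and 5 lower, where 1.06% and 1.62% of all genes tested were.

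Among 16 genes of other bile acid and biliary lipid transport, 11 were tested, 1 was called higher and 1 lower (median log2 fold change -0.20). ABCC3 (chromosome 17, 50634777 to 50692253), another basolateral exporter of conjugated bile acids, was at 12.1, 11.7 and 12.8 CPM in control and 46.5, 39.6 and 41.3 CPM in sedanolide-treated cells. Every sedanolide library was thus far above every control library. Its log2 fold change was 1.80 with a standard error of 0.12 (adjusted p = 0.00324 by edgeR), and it was 1.12 in the TPM table (adjusted p = 0.0176 by limma). ABCC3 was not called without control 1 (adjusted p = 0.0634 by edgeR) or without sedanolide 2 (0.0766).

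FABP1 (chromosome 2, 88122982 to 88128062), the liver fatty acid binding protein that also carries bile acids in the cytosol, fell from 138.9, 139.9 and 106.0 CPM in control to 48.4, 42.2 and 57.1 CPM in sedanolide-treated cells. Its log2 fold change was -1.38 with a standard error of 0.17 (adjusted p = 0.0265 by edgeR). It was called without control 3 or sedanolide 3, and the adjusted p was 0.118 to 0.211 by edgeR without any of the other 4 libraries. In the TPM table its log2 difference was -1.48 (adjusted p = 0.0542 by limma). The uptake carriers SLCO1B1 and SLCO1B3 and the ileal genes SLC10A2 and FABP6 had 0 counts in all libraries.

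Of 17 genes of bile acid synthesis, 12 were tested, and edgeR called 0 (1 higher and 1 lower at an unadjusted p-value under 0.05), with a median log2 fold change of -0.05. DESeq2 called 1, CYP39A1. CYP7A1, the rate-limiting enzyme of the classical pathway, and CH25H, a cholesterol hydroxylase, had 0 counts in all libraries, which allows up to 3 counts in each. The extremes were CYP39A1, an oxysterol hydroxylase, at 0.61 (adjusted p = 0.164 by edgeR) and AMACR, the racemase of side chain shortening, at -0.41 (adjusted p = 0.313 by edgeR).

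Of 19 other bile acid receptors and regulators, 16 were tested and edgeR called 0 (0 higher and 1 lower at an unadjusted p-value under 0.05; 0 by DESeq2), with a median log2 fold change of -0.04. They ranged from VDR, the vitamin D receptor, which also binds lithocholic acid, at -0.67 (adjusted p = 0.389 by edgeR) to MAFG, a small MAF protein that represses bile acid synthesis genes and partners NRF2, at 0.32 (adjusted p = 0.440 by edgeR). VDR was called lower with the side as a term (-0.85, adjusted p = 0.0248 by edgeR). GPBAR1, the membrane receptor for bile acids, had 2 to 4 counts per library.

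Of 21 other targets of FXR, 18 were tested and edgeR called 0, with 0 higher and 7 lower at an unadjusted p-value under 0.05, where 5.34% and 6.57% of all genes tested were. Their median log2 fold change was -0.29, 14 of the 18 were below 0 and 8 lay wholly below the controls, as did 9.65% of all genes tested. The list was not sorted by whether FXR raises or lowers a gene, so its median is not a measure of FXR activity. DESeq2 called 2 lower, SULT2A1 and FGA, as did edgeR with the side as a term. SULT2A1, which sulfates bile acids, was the most negative at -0.74 (adjusted p = 0.147 by edgeR), and FETUB, a plasma protein, was the most positive at 0.84 (adjusted p = 0.440 by edgeR). The FETUB value rests on only 7 to 28 counts per library. FGA, the α chain of fibrinogen and a gene chosen after its values were seen, was at -0.73 (adjusted p = 0.0502 by edgeR). Many of these genes encode plasma proteins of hepatocytes, as do most of the hepatocyte markers, whose median log2 fold change was -0.38. The part of this in the FXR target values was not tested.

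**Figure D4:**
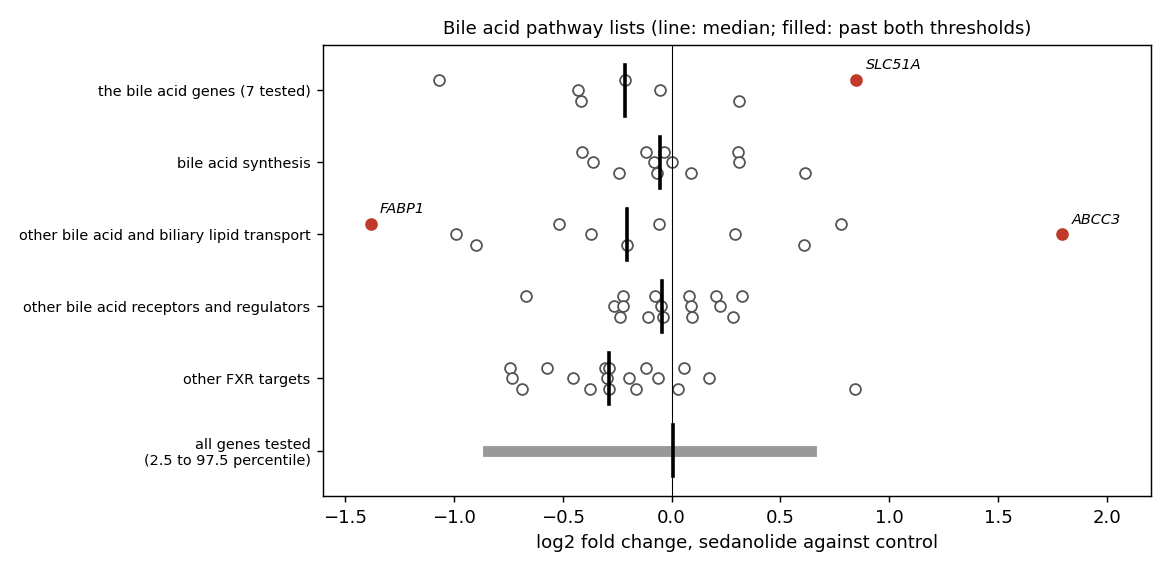
Log2 fold changes of sedanolide against control (x axis) for each tested gene of the bile acid lists, with points for genes, filled red points for genes past the FDR of 0.05 and the fold change of 1.5, and thick lines for medians. The grey bar spans the middle 95% of all genes tested, from -0.84 to 0.64. The called genes ABCC3 (1.80), SLC51A (0.85) and FABP1 (-1.38) lie outside it, as do BAAT (-1.07), SLC10A5 (-0.99), SLCO2B1 (-0.90), FETUB (0.84) and ABCG2 (0.78), which were not called. Counts per library were low for ABCG2 (6 to 20), FETUB (7 to 28), SLC10A5 (11 to 80) and BAAT (30 to 64).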

How the data were processed

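Polyadenylated RNA of 6 libraries was sequenced as paired-end reads from a directional kit. The authors used FastQC for read quality, Trimmomatic for trimming, STAR for alignment to GRCh38 and RSEM for quantification. Versions and the annotation release are not given in the sources used here. The authors deposited expected counts without normalization and a second table of log2(TPM + 1) values for 11006 rows, whose filter is not stated.

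After rounding, the counts were tested with edgeR 4.0.16 (R 4.3.3). The filter was filterByExpr and the scaling TMM, and all genes were tested together with robust quasi-likelihood fits and the condition as the only term, the Benjamini-Hochberg FDR being 0.05 and the fold change 1.5. The biological coefficient of variation was 0.199. Alternatives were DESeq2 1.42.0, limma 3.58.1 on the deposited log2 values, other scalings and filters, the replicate number as a block, the library side as a term, and leaving out each library. TPM were recovered by removing the added 1. Symbols were found for 61369 identifiers, positions came from GENCODE 44 and promoters from RefSeq. The members, gene lists and tests were chosen with earlier results of these data known. Named genes are the 10 members and, of each list, the called genes or otherwise both extremes, with defining genes at or near 0. The edgeR procedure was tested on simulated data.

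Libraries held 16420258 to 26714853 expected counts, and 3 counts in a library equal 0.116 to 0.182 CPM. Libraries of a group differed by more than sampling noise. All 6 libraries entered the main results.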

Additional observations from a re-analysis of the deposited data

How the results depend on the processing

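SLC51A kept its direction under every alternative run, NR0B2, ABCB4, BAAT and SLC51B kept theirs as well, and NR1H4 did so except within side A (-0.11). SLC27A5 was reversed without control 1 (0.07), without sedanolide 3 (0.10) and within side B (0.12). Its range was -0.18 to 0.10 over the fits that left out a library. Of all genes, 94 were called. DESeq2 called 326 (129 higher, 197 lower), a fit on all genes with at least 1 count called 157 (78 higher, 79 lower), the side as a term gave 379 (150 higher, 229 lower), and limma on the log2 TPM table gave 61 (33 higher, 28 lower). Without single libraries the number was between 0 and 135, with 0 without control 1 and without sedanolide 2 (1065 and 887 had an unadjusted p-value under 0.05 by edgeR), 7 without control 2, 28 without control 3, 12 without sedanolide 1 and 135 without sedanolide 3.

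Of the members, 1 was called, against 2 with the side as a term, 0 with limma on the TPM table and 0 with its pseudocount of 0.1 (in both, 1 higher and 2 lower at an unadjusted p-value under 0.05), and 0 to 1 when a library was left out. Of the other pathway genes 2 were called, against 6 with DESeq2, 7 with the side as a term, 1 with limma on the TPM table and 1 with its pseudocount of 0.1, and 0 to 3 when a library was left out. The genes called by DESeq2 were ABCC3, CYP39A1, FABP1, SLCO2B1, SULT2A1 and FGA, and those called with the side as a term were ABCC3, ABCC2, FABP1, SLCO2B1, SULT2A1, FGA and VDR. The median of all genes was between -0.07 and 0.01 on the log2 scale under the scalings tried.

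No pairing by replicate number was seen, since the deviations of same-numbered libraries correlated at -0.13, -0.30 and -0.73. Component 1 held 56.1% of the variance, so these correlations cannot show whether same-numbered libraries share a smaller effect. With the replicate number as a block edgeR called 0 genes (770 at an unadjusted p-value under 0.05), 0 members and 0 other pathway genes, and SLC51A had a log2 fold change of 0.85 with an adjusted p of 0.505. Depth limits FGF19, ABCB11 and SLC10A1 to statements on counts, and BAAT rests on 30 to 64 counts per library.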
